A study of Homo sapiens with 4 samples.

Results

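The promoters described here are those of protein-coding genes that were accessible in both a prostate adenocarcinoma line and its drug-resistant derivative, and that were called over a wider stretch in the derivative. A canonical transcription start site (TSS) of GENCODE was taken for each of 20033 protein-coding genes, and the accessible interval that held it was read from the peak list of either line. An interval of C4-2B held the TSS of 13134 genes, an interval of C4-2BER that of 13966, and 12870 genes had one in both lists. Members were the 972 of those 12870 genes (7.55%) whose C4-2BER interval was at least 1.5 times as wide as the C4-2B interval. In the other direction, 326 genes (2.53%) had a C4-2B interval at least 1.5 times as wide as the C4-2BER interval. The members were chosen on these measured widths, so the widths, the width ratios and the share of 7.55% are a description and were not tested.

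Chromatin accessibility was profiled by ATAC-seq, in which the transposase Tn5 inserts sequencing adapters into DNA that is not wrapped in nucleosomes. C4-2B is a human prostate adenocarcinoma line that the study counts as castration-resistant. C4-2BER was derived from it by long exposure to enzalutamide, a drug that blocks the androgen receptor. C4-2BER was also cultured with enzalutamide continuously present, so line and drug exposure cannot be told apart. The study describes C4-2BER as neuroendocrine-like, while the sample titles call it enzalutamide-resistant only. Each group is 1 cell line with 2 libraries, and the libraries of a line were merged before peaks were called, so every value below is 1 value per line, with no replicate error and no test between the lines. From the background in the lists, the depth was 30.2 M reads for the first line and 25.2 M for its derivative, over lists of 149676 and 118728 intervals. The rule itself makes C4-2BER, the line of lower depth, the wider one in this group, and the part of depth in the widths was not tested. All 9 prostate luminal markers examined had an interval over their TSS in both lines. Of 8 neuroendocrine markers, C4-2B had one at 5 and C4-2BER at 7. None of the basal, fibroblast and leukocyte markers TP63, KRT5, PDGFRB and PTPRC had one in either line.

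An active promoter holds a stretch of DNA kept free of nucleosomes just before the TSS, where general transcription factors and RNA polymerase II assemble, and it is bordered by positioned nucleosomes, of which the first lies downstream of the TSS. Most human promoters are rich in CpG dinucleotides and are open in nearly every cell type, whereas promoters of genes for one tissue more often have few CpGs. The called width of a promoter depends on how far reads stay above the background on either side of the nucleosome-free stretch. Width here is the length of a called interval in bp, and it is set by the peak caller as well as by the chromatin.

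Bases of the C4-2BER interval that lie outside the C4-2B interval are called added bases. To show what such DNA looks like, 200 bases are given for 4 of the members that reached the largest width ratios with a −log10 q of at least 10 in both lines. The window is that of the highest C4-2BER summit whose 200 bases lay wholly in the added bases and met no exon. For KLF12 and ZC3H4 a higher added summit, 377 and 543 bp downstream of the TSS, was passed over by this rule. Members of larger ratio were passed over where no window met it or where the sequence was left out of this display. All are read along the transcription of the gene from the hg38 genome, and capitals mark matches to the 15 motifs searched.
KLF12, chr13:74135481-74135680, minus strand, with the summit 1177 bp upstream of the TSS and outside any annotated gene: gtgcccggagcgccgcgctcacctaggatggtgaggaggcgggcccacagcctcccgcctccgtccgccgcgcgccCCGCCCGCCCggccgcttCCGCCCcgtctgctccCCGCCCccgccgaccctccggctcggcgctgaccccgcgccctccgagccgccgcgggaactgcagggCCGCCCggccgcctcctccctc
ZC3H4, chr19:47112699-47112898, minus strand, with the summit 977 bp downstream in an intron of the gene: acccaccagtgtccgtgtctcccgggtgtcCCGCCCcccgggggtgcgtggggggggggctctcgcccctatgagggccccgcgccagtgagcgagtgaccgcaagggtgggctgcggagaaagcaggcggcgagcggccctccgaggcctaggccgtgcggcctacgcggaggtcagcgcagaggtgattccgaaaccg
TNC, chr9:115118489-115118688, minus strand, with the summit 432 bp upstream in an intron of the long noncoding RNA gene DELEC1: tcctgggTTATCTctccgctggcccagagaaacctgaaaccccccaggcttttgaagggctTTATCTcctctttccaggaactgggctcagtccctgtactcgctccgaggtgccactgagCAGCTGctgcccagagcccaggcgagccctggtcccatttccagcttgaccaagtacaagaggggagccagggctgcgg
LMO1, chr11:8262838-8263037, minus strand, with the summit 940 bp downstream in an intron of the gene: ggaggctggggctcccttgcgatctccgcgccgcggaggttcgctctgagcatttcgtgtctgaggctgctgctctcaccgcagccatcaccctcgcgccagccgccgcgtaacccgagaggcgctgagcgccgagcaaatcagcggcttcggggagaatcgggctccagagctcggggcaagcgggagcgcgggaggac

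These 4 stretches were unlike in composition. The KLF12 stretch was 82.5% G and C, held 32 CpGs and had 5 matches to GGGCGG, the core bound by SP and KLF factors, on either strand. The ZC3H4 stretch held 1 such match, at 73.5% G and C. The LMO1 stretch held 24 CpGs and no match to any motif searched. The TNC stretch was the least GC-rich of the 4, at 60.5%, and had 5 CpGs, 2 matches to the GATA letters AGATAA and 1 to the E-box CAGCTG. A match is a run of letters, not a shown binding site. All 4 summits lay inside another interval of C4-2B, so this DNA was already called accessible there. The highest summit of that C4-2B interval held 43 reads at KLF12, 145 at ZC3H4, 34 at TNC and 74 at LMO1, and the C4-2BER summit in the window held 93, 42, 51 and 62 reads before depth scaling.

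The members were narrow in C4-2B and of ordinary width in C4-2BER. Their median width was 576 bp (quartiles 383 and 771) in C4-2B and 1132 bp (quartiles 853 and 1442) in C4-2BER. Over all 12870 shared promoters the medians were 1065 bp and 1131 bp, with a median width ratio of 1.02. The median ratio of the members was 1.82, which follows from the rule. A ratio of at least 2 was reached by 362 members, a ratio of at least 3 by 99 and a ratio of at least 5 by 22. The C4-2BER interval held the whole C4-2B interval in 753 members (77.5%). The 3 genes just inside the cutoff were AP1M1 (790 bp in C4-2B and 1186 bp in C4-2BER), NACC1 (620 and 930 bp) and PCDH15 (336 and 504 bp). Just outside it were CDK13 (1123 and 1684 bp), PDLIM5 (879 and 1318 bp) and MT1X (825 and 1237 bp).

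**Figure D1:**
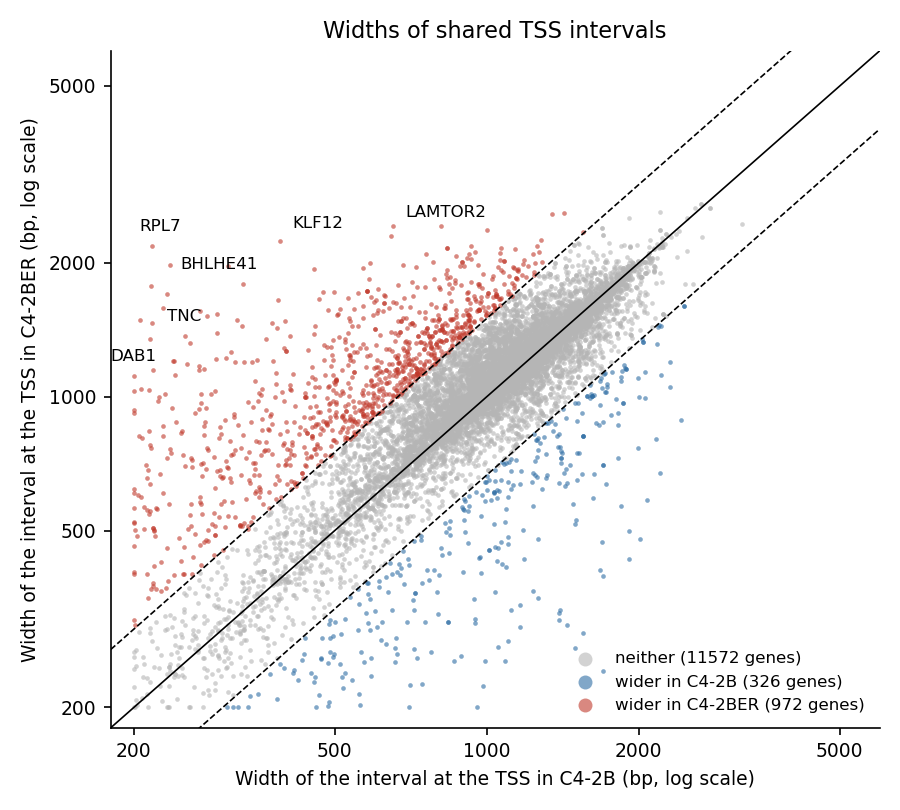
Width of the interval at the TSS in C4-2B (horizontal axis, bp, log scale) against C4-2BER (vertical axis, bp, log scale) for 12870 genes, each a point; the solid line marks equal widths and the dashed lines a ratio of 1.5 in either direction. The 972 members (red) lie above the upper dashed line, mostly at C4-2B widths under 1000 bp, and the 326 genes wider in C4-2B (blue) lie below the lower one.

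The share of members fell with the C4-2B width, which is itself part of the rule. Members were 152 of 292 genes (52.1%) with a C4-2B interval of at most 300 bp, 228 of 701 (32.5%) between 300 and 500 bp and 329 of 1626 (20.2%) between 500 and 750 bp. Between 750 and 1000 bp they were 6.90%, between 1000 and 1500 bp 1.11%, and above 1500 bp a single gene among 1528 passed. The counts by family below are therefore set beside the share of all shared genes at the same C4-2B widths.

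About as many members arose by joining as by extension alone. In 510 members (52.5%, Wilson 95% interval 49.3 to 55.6, counting error only) the C4-2BER interval also covered another interval that C4-2B listed separately, and 479 of these met exactly 1. Among all shared promoters this was so for 7.23%. Joining was not particular to the members. In the genes wider in C4-2B, the C4-2B interval covered another C4-2BER interval in 208 (63.8%). The gap in C4-2B between the joined intervals had a median of 101 bp (quartiles 72.0 and 164), and the second C4-2B interval had a median width of 435 bp and a median of 52 reads at its highest summit. The other 462 members (47.5%) grew over bases that C4-2B did not list at all. Of the 562 kb added over the members, 43.3% lay inside other C4-2B intervals and so were called accessible in both lines. When the C4-2BER width was set against the summed width of all C4-2B intervals it covered, 499 genes passed the cutoff of 1.5, and 129 passed in the other direction.

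Joined and extended members had different read levels. Reads over the summit of highest −log10 p in each interval were recovered from the deposited values, and C4-2BER reads were multiplied by 1.20, the ratio of the genome-wide backgrounds, to bring both lines to one depth. Over all shared promoters this depth-scaled read ratio had a median of 1.11, so values are read against 1.11 and not against 1. The members had a median of 1.29, which is 1.16 times that of all shared promoters, and 74% of them lay above it. The joined members had a median of 1.20, with medians of 99 reads (C4-2B) and 102 reads (C4-2BER) before scaling. The extended members had a median of 1.47, with medians of 42 reads (C4-2B) and 65.5 reads (C4-2BER). These ratios take the C4-2BER summit from the whole interval, added bases included. With only the C4-2BER summits inside the C4-2B interval, the median was 1.17 in the joined and 1.46 in the extended members. Over all shared promoters it was again 1.11. Reads given below for single genes are not scaled, and they are those of the highest summit anywhere in the interval, which in C4-2BER can lie in the added bases. Width and summit reads come from the same merged reads, so neither is independent support for the other.

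Higher reads and a wider call were related but not the same. Of the 101 shared promoters with a read ratio above 3, 77 (76.2%) were members, and of the 212 between 2 and 3, 118 (55.7%) were. Of the 2400 with a ratio between 0.75 and 1, 85 (3.54%) were members, and 90 members in all had a ratio below 1. A ratio of at least 1.5 was found in 36.0% of the members and in 6.36% of all shared promoters. The genes wider in C4-2B had a median of 0.967.

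**Figure D2:**
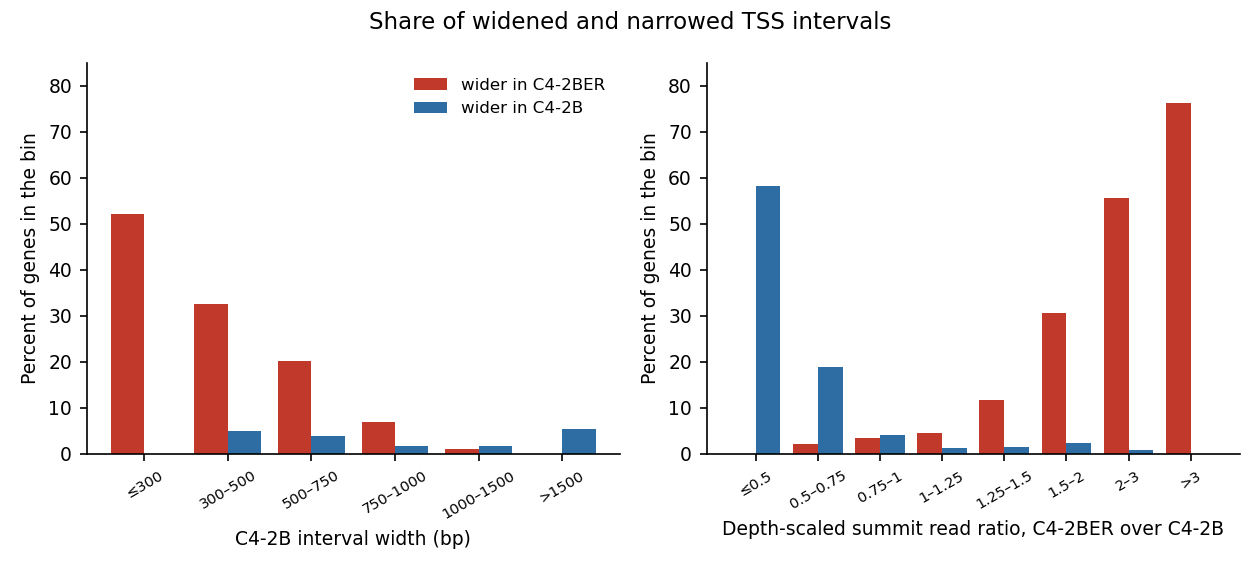
Percent of shared promoters that were wider in C4-2BER (red) or wider in C4-2B (blue), by width of the C4-2B interval in bp (left) and by depth-scaled summit read ratio of C4-2BER over C4-2B (right); each pair of bars is a bin of genes. Members fell from 52.1% in the narrowest bin to 1 gene in the widest, and rose to 76.2% in the bin of highest read ratio.

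The widened intervals held more summits. A single summit made up the C4-2B interval in 688 members (70.8%) and the C4-2BER interval in 151 (15.5%), whereas over all shared promoters the shares were 29.7% and 23.4%. The genes wider in C4-2B mirrored this, with single summits in 22.4% of the C4-2B and 69.9% of the C4-2BER intervals. The number of summits was higher in C4-2BER in 776 members (79.8%), against 26.9% of all shared promoters. A summit lay in the added bases of 790 members (81.3%), in 99.6% of the joined and 61.0% of the extended ones, and the highest such summit had a median of 42 reads (quartiles 29 and 63). That added summit was the highest of the whole C4-2BER interval in 119 members (12.2%). It lay downstream of the TSS in 473 members, at a median distance of 515 bp, and upstream in 317, at a median of 574 bp.

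Added bases lay more often downstream of the C4-2B interval, in the direction of transcription. A member was called mainly downstream or mainly upstream when at least 75% of its added bases were on that side. There were 422 members mainly downstream (43.4%, interval 40.3 to 46.6), 279 mainly upstream (28.7%, interval 25.9 to 31.6) and 271 that grew on both sides (27.9%). All 10526 shared promoters with any added bases had the opposite order, with 37.1% downstream and 45.9% upstream, and so did the 3316 shared promoters that were no members and had at least 100 added bases, with 36.3% and 46.1%. The 326 genes wider in C4-2B had lost their bases mainly downstream in 56.7% and mainly upstream in 29.1%. Downstream was thus the more frequent side among large changes of width in either direction. Among the joined members 52.9% were downstream and 29.8% upstream, and among the extended members 32.9% and 27.5%, so the excess downstream came mostly from the joined ones. Where a single other C4-2B interval was joined, it lay downstream in 313 members (65.3%) and upstream in 166.

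**Figure D3:**
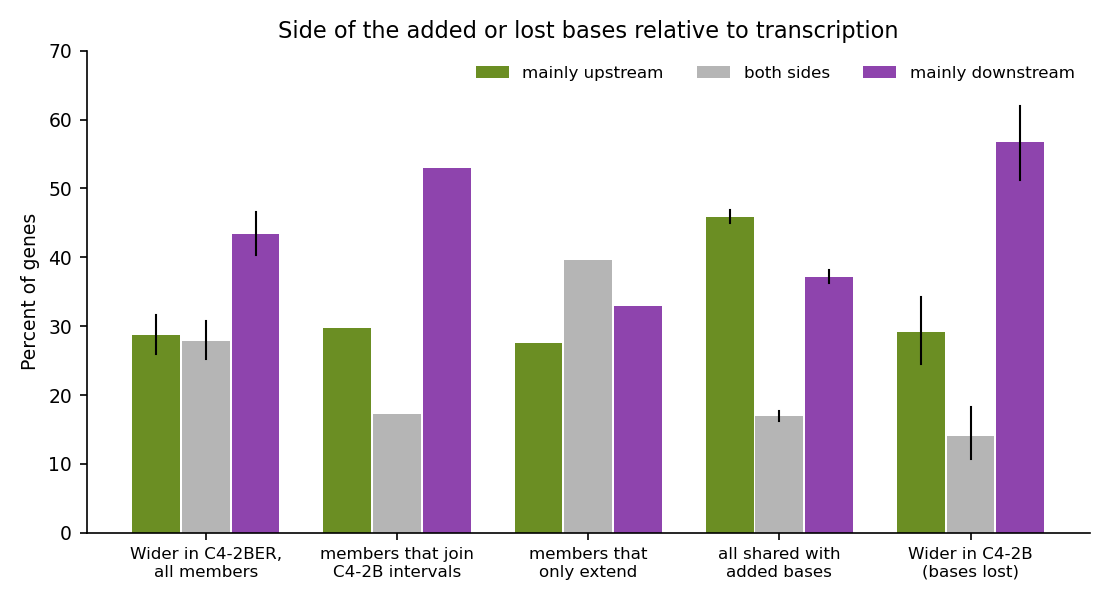
Percent of genes whose added bases (lost bases for the genes wider in C4-2B) lay mainly upstream, on both sides or mainly downstream along transcription; black lines are Wilson 95% intervals for counting error, drawn where computed. Downstream was the most frequent side among the members (43.4%), the joined members (52.9%) and the genes wider in C4-2B (56.7%), while upstream was the most frequent among all shared promoters with added bases (45.9%).

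Seen from the TSS, the median member reached 280 bp upstream and 214 bp downstream in C4-2B, and 498 and 527 bp in C4-2BER. All shared promoters reached 488 and 504 bp in C4-2B. Of the added bases, 42.3% were in introns and 26.4% in exons of the member itself, 14.5% in another gene only and 16.7% between genes. Bases inside both the member and another gene were counted as the member's own, so 14.5% is a lower limit for bases in another gene. Added bases covered a further coding-transcript TSS of the same gene in 205 members (21.1%, against 3.45% of all shared promoters) and the canonical TSS of another coding gene in 26 (2.67%, against 0.311%); wider intervals cover more of any feature. By chromosome, the share of members ran from 4.11% on chromosome 13 to 10.1% on chromosome 6, leaving out Y with 2 members among 9 shared genes.

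Among members called with a −log10 q of at least 10 in both lines, RPL7, which encodes a protein of the large ribosomal subunit, had the largest ratio. Its interval was 217 bp with 70 summit reads in C4-2B and 2185 bp with 168 reads in C4-2BER, a ratio of 10.1. All 1969 added bases were upstream, 1902 of them were already in another C4-2B interval, and they reached the TSS of the neighbouring RDH10, a retinol dehydrogenase. The summit of the original 217 bp held 61 reads in C4-2BER against 70 in C4-2B before depth scaling, and the 168 reads belonged to a summit in the added bases. COG4, a subunit of a Golgi tethering complex, likewise widened from 255 to 1186 bp over the TSS of SF3B3, a splicing factor subunit, with 43 and 55 reads. The 55 reads were at an added summit, and the original stretch of COG4 held 45 in C4-2BER.

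Regulators of transcription took the next places. BHLHE41, a basic helix-loop-helix (bHLH) repressor of the circadian clock, was 236 bp wide with 50 reads in C4-2B and 1977 bp with 129 reads in C4-2BER, and 1638 of its added bases were upstream. Those 129 reads were at an added summit, and the original stretch held 97. ID4, a helix-loop-helix protein that lacks a DNA-binding basic region and inhibits other bHLH factors, went from 308 to 1972 bp and from 40 to 98 reads, with 1313 bases downstream, but the 98 reads were at an added summit and C4-2BER listed no summit in the original stretch. KLF12, a Krüppel-like repressor, went from 389 to 2242 bp and from 31 to 129 reads, with 1325 bases upstream, where the GC-rich stretch printed above lies, and 528 downstream. Its depth-scaled read ratio of 4.98 was the highest of the 12 members of largest width ratio. ZC3H4, a zinc finger protein that restrains noncoding transcription, widened from 329 to 1789 bp with 66 and 151 reads, and 1445 of its added bases were downstream. The 151 reads were at an added summit, and the original stretch held 87 in C4-2BER.

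The remaining members of that top group were of mixed function. FGFBP3, which binds fibroblast growth factors, widened from 279 to 1516 bp, mainly downstream. Its reads were 50 and 127, but the 127 were at an added summit and the original stretch had 72 in C4-2BER. TNC, the matrix glycoprotein tenascin-C, was 292 bp wide with 25 reads in C4-2B and 1390 bp with 51 reads in C4-2BER, and grew upstream by 1003 bases. Those 51 reads were at an added summit, and the original stretch held 44 in C4-2BER. LMO1, a LIM-only transcriptional cofactor, widened from 320 to 1488 bp downstream while its reads were 68 and 62, a depth-scaled ratio of 1.09. Its 62 reads were at an added summit, and the original stretch held 60 in C4-2BER. GADD45B, a stress-inducible signalling protein, widened from 328 to 1443 bp on both sides with 100 and 112 reads. NHS, a regulator of actin remodelling, had 386 and 1651 bp with 54 and 93 reads, and ABTB3, a BTB-domain protein, had 454 and 1939 bp with 77 and 93 reads. In all 12, the C4-2BER interval covered at least 1 other C4-2B interval.

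**Figure D4:**
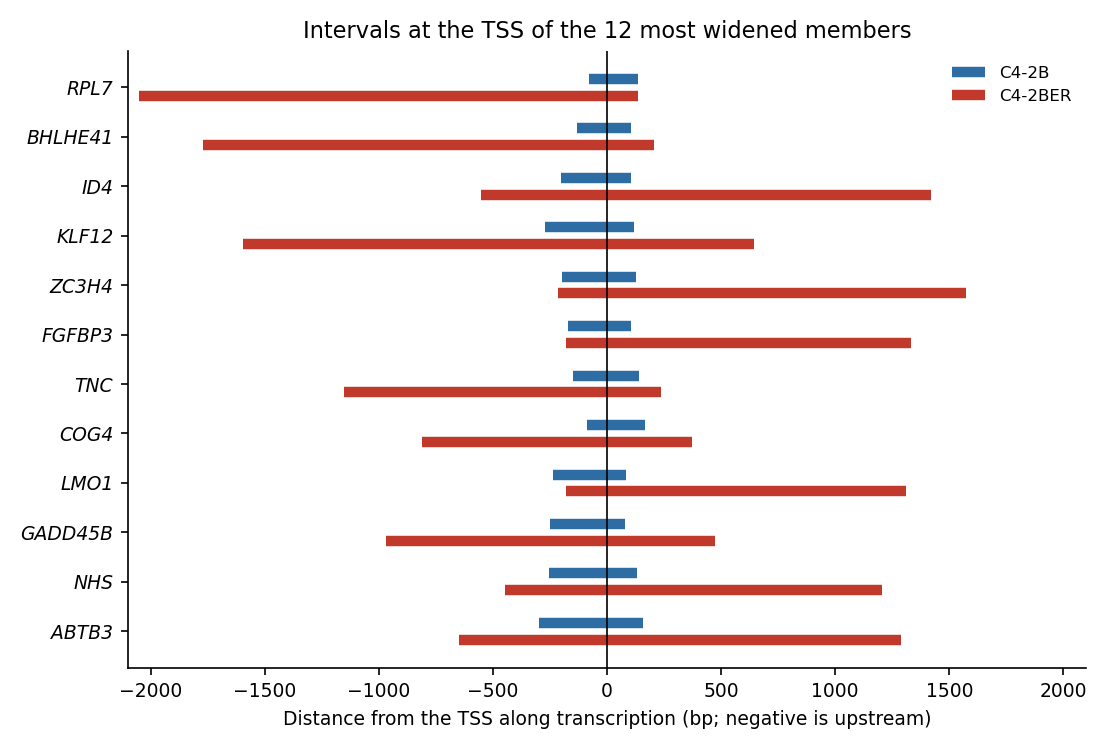
Intervals at the TSS of the 12 members of largest width ratio with a −log10 q of at least 10 in both lines, in C4-2B (blue) and C4-2BER (red), by distance from the TSS along transcription in bp. RPL7, BHLHE41, TNC and COG4 grew mainly upstream, ID4, ZC3H4, FGFBP3, LMO1, NHS and ABTB3 mainly downstream, and KLF12 and GADD45B on both sides.

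By added bases rather than ratio, the same rule also brought LAMTOR2, UBQLN4 and ZBTB2. LAMTOR2, a subunit of the lysosomal Ragulator complex, and UBQLN4, a ubiquitin-binding shuttle protein, are divergent neighbours on chromosome 1. They had separate intervals of 652 and 813 bp in C4-2B and a single interval of 2427 bp in C4-2BER. The C4-2B summits held 167 and 133 reads and the joined C4-2BER summit 158, so both counted as members through one joined interval. In all, the 972 members rest on 925 distinct pairs of intervals. ZBTB2, a zinc finger and BTB domain protein, went from 646 to 2294 bp with 1661 bases downstream, and from 70 to 156 reads. The 156 reads were at an added summit, and the original stretch held 59 in C4-2BER.

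**Figure D5:**
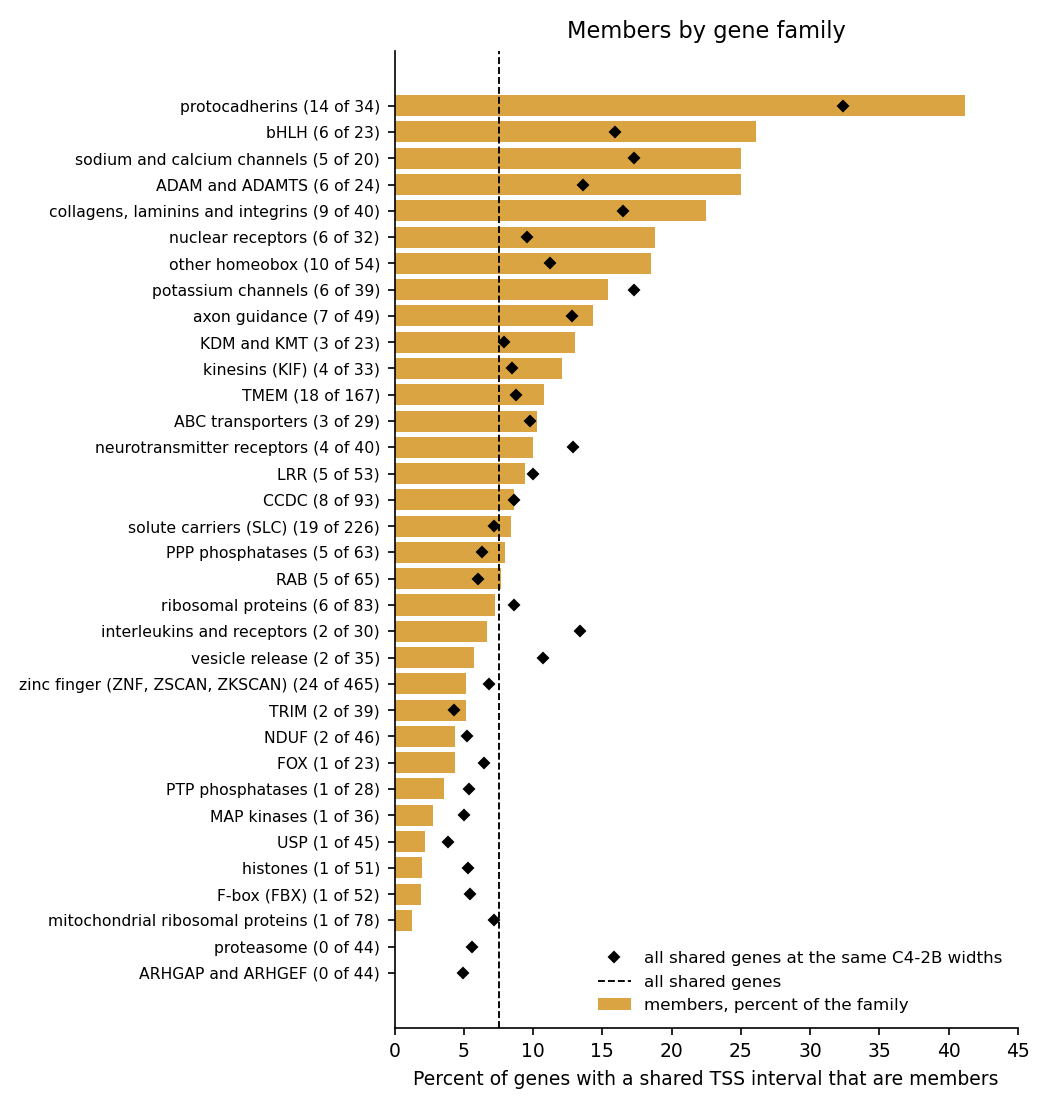
Percent of the genes of each family with a shared TSS interval that were members (bars), for the 34 families with at least 20 such genes; diamonds give the share of all shared genes at the same C4-2B widths and the dashed line the share over all shared genes, 7.55%. Protocadherins lead at 41.2%, with a diamond at 32.4%, and proteasome and ARHGAP and ARHGEF genes hold no member.

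Of the 972 members, 211 fell into a family or list drawn up by symbol. Among 34 families with at least 20 shared genes, 19 lay above the background of 7.55%. In 33 of the 34, the Wilson interval of the share held the share of all shared genes at the same widths. These counts are small and the families were compared with no test.

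Of those 34 families, protocadherins had the highest share. These homophilic adhesion receptors of neurons, of which most lie in clusters on chromosome 5, had 14 members among 34 shared genes (41.2%, interval 26.4 to 57.8). Their median C4-2B width was only 387 bp, and all shared genes at those widths gave 32.4%, which lies inside that interval. Of the 14, 10 lie in those clusters, and 10 widened mainly downstream. PCDHA4 was 200 bp wide with 12 reads in C4-2B and 1116 bp with 31 reads in C4-2BER, PCDH7 304 bp with 24 reads and 1224 bp with 72 reads, and PCDHGA11 211 bp with 15 reads and 703 bp with 28 reads. The shortest interval in the C4-2B list was 200 bp, so PCDHA4 was at that limit and PCDHGA11 close to it. PCDHB6 went from 260 to 511 bp with 20 reads in either line. Classical and related cadherins, too few for that comparison, had 4 members among 12 (33.3%, against 27.0% at the same widths): CDH6, CDH7, CDH15 and CDH1, the epithelial E-cadherin, which went from 491 to 741 bp with 148 and 141 reads.

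Matrix and matrix-processing genes were also above the background. Collagens, laminins and integrins had 9 members among 40 (22.5%, against 16.5% at the same widths), among them ITGA7, from 224 to 999 bp with 23 and 60 reads, LAMA3, from 694 to 1431 bp with 98 and 88 reads, and COL6A2, from 357 to 740 bp with 72 and 58 reads. ADAM and ADAMTS metalloproteases had 6 of 24 (25%, against 13.6%), of which ADAMTS7 widened from 623 to 1560 bp downstream with 105 and 84 reads. Several of these widened promoters thus held fewer reads at their summit in C4-2BER before scaling.

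Neuronal channel and guidance genes gave mixed counts. Sodium and calcium channel genes had 5 members among 20 (25%, against 17.3% at the same widths), with CACNA1H at 306 and 695 bp and CACNA1G at 502 and 1022 bp. Potassium channels had 6 of 39 (15.4%), which was below the 17.3% of all genes at their widths, and neurotransmitter receptors had 4 of 40 (10.0%, against 12.9%). Axon guidance genes had 7 of 49 (14.3%, against 12.8%). ROBO2, a receptor for Slit ligands, was 276 bp wide with 22 reads in C4-2B and 1157 bp with 70 reads in C4-2BER, with 721 bases upstream and no other C4-2B interval under them. EPHA7, an ephrin receptor, went from 485 to 1570 bp downstream and from 116 to 159 reads. Genes of vesicle release had 2 of 35 (5.71%, against 10.7%).

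Developmental transcription factors were represented by several families. The bHLH family had 6 members among 23 (26.1%, against 15.9% at the same widths), and 5 of the 6 joined C4-2B intervals. Beside BHLHE41 and ID4 these were HES6 (677 to 1588 bp, 122 and 139 reads), TCF12 (791 to 1398 bp, 89 and 65 reads), and the proneural factors NEUROG2 (968 to 1625 bp, 53 and 59 reads) and ATOH1 (546 to 883 bp, 24 and 36 reads). Homeobox genes outside the HOX clusters had 10 of 54 (18.5%, against 11.2%). Among these, ALX1 went from 238 to 941 bp with 10 and 34 reads, LHX9 from 598 to 1637 bp upstream with 52 and 68 reads, and POU4F1 from 414 to 1123 bp with 48 and 82 reads. NKX1-2 went from 493 to 1239 bp with 21 and 50 reads, IRX5 from 519 to 1017 bp with 156 and 148, and NKX6-1 from 827 to 1611 bp with 117 and 138. The C4-2B calls of ALX1 and NKX1-2 were weak, with a −log10 q of 2.92 and 6.86. The 34 reads of ALX1 were at an added summit, and its original stretch held 31 in C4-2BER. The last 4 were GBX1 (960 to 1795 bp), VAX2 (946 to 1662 bp), ONECUT1 (569 to 943 bp) and SIX2 (876 to 1329 bp).

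The HOX clusters contributed 2 of 12 shared genes (16.7%, against 17.2% at the same widths). HOXA13, which patterns the urogenital tract, went from 801 to 1482 bp and from 47 to 105 reads, growing on both sides over bases that C4-2B did not list. HOXB6 went from 201 to 307 bp and from 21 to 55 reads. Its C4-2B interval was a weak call, with a −log10 q of 4.41, and was close to the shortest width in the list, 200 bp. FOX genes had 1 member among 23 (4.35%, against 6.43%), FOXP1 (854 to 1759 bp, 85 and 81 reads), and SOX genes 1 among 10 (10.0%, against 7.83%), SOX13 (889 to 1784 bp, 142 and 113 reads). Nuclear receptors had 6 of 32 (18.8%, against 9.56%): ESR1, the estrogen receptor, went from 383 to 1132 bp downstream with 24 and 28 reads (18 in the original stretch), RORB from 446 to 897 bp with 24 and 62 reads, and NR3C1, the glucocorticoid receptor, from 955 to 1559 bp upstream with 49 and 81 reads. NR2E3, NR2F2 and ESRRG completed the 6. KLF and SP genes, with only 19 shared, had 3 members, KLF12, KLF13 and SP3 (15.8%, interval 5.52 to 37.6, against 3.91%).

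Several families, housekeeping machinery among them, lay below the background of 7.55%, most with an interval that held it. Mitochondrial ribosomal proteins had 1 member among 78 (1.28%, interval 0.227 to 6.91, against 7.14% at the same widths), the one of the 34 families whose interval lay apart from that share. The margin was small, and the intervals were not adjusted for the number of families compared. F-box genes had 1 among 52 (1.92%, interval 0.340 to 10.1, against 5.44%) and histones 1 among 51 (1.96%, interval 0.347 to 10.3, against 5.31%). Proteasome subunits had 0 among 44 (interval 0 to 8.03, against 5.59%), and ARHGAP and ARHGEF genes also 0 among 44 (against 4.94%); these intervals hold the background of 7.55%. Cytosolic ribosomal proteins had 6 of 83 (7.23%, against 8.63%), with RPL32, after RPL7, going from 442 to 1076 bp with 75 and 70 reads. The large zinc finger family had 24 of 465 (5.16%, interval 3.49 to 7.56, against 6.85%), led among the stronger calls by ZNF529 (653 to 1633 bp) and ZNF774 (560 to 1285 bp). Solute carriers had 19 of 226 (8.41%, against 7.20%), with SLC35E4 going from 589 to 1677 bp upstream, and TMEM genes 18 of 167 (10.8%, against 8.79%), of which 14 widened downstream.

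Lists chosen for prostate lineage were short, and their shares have wide intervals. Of 11 neuroendocrine genes with a shared TSS interval, 2 were members (18.2%, interval 5.14 to 47.7, against 14.7% at the same widths), and 1, the adhesion molecule NCAM1, was wider in C4-2B, at 719 bp against 473 bp in C4-2BER. SNAP25, a synaptic SNARE protein, went from 492 to 1170 bp and from 51 to 76 reads, with 567 bases upstream that C4-2B did not list. CHGB, a secretory granule protein, was close to the cutoff at 595 and 912 bp, with 83 and 70 reads and a depth-scaled ratio of 1.01. Of 19 androgen-regulated genes, ZBTB16 alone was a member (5.26%, interval 0.935 to 24.6, against 6.44%), at 681 bp with 107 reads in C4-2B and 1978 bp with 77 reads in C4-2BER, and 3 were wider in C4-2B. Of 8 shared genes that the study itself names for adhesion and neuronal function, TNC and DAB1 were members (25%, interval 7.15 to 59.1, against 18.4%) and 2 were wider in C4-2B; the study chose that list with these samples in view, so it is no independent evidence of a direction. DAB1, an adaptor of reelin signalling, was 239 bp wide with 16 reads in C4-2B and 1206 bp with 44 reads in C4-2BER, and grew upstream by 839 bases. Of its 967 added bases, 739 were already in another C4-2B interval. Its C4-2B interval was a weak call, with a −log10 q of 6.63. Of 15 housekeeping genes, ACTB alone was a member (6.67%, against 4.59%), widening from 478 to 1117 bp downstream with 125 and 133 reads.

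Compared with all shared promoters, the members were close in G and C content at the TSS itself. Fewer of them were CpG-rich or held the ETS letters, though narrow promoters gave another order for CpG. In the 300 bases from 250 before to 50 after the TSS, the members had a median of 68.0% G and C and 82.4% were CpG-rich, meaning at least 50% G and C and an observed over expected CpG of at least 0.6. All shared promoters had 67.0% and 87.6%, and the genes wider in C4-2B 64.2% and 65.6%. Of the 1602 shared promoters that were not CpG-rich, 10.7% were members and 6.99% were wider in C4-2B, against 7.11% and 1.90% of the 11268 CpG-rich ones. Their median C4-2B widths were 791 and 1091 bp. GGGCGG was found in 75.5% of the members and 76.2% of all shared promoters at the TSS, and CCGGAAG, the letters bound by ETS factors, in 11.7% (interval 9.85 to 13.9) and 19.9%. In the 1813 shared promoters of at most 750 bp in C4-2B that were neither wider nor narrower by the rule, CCGGAAG was found in 14.5% (interval 13.0 to 16.2). That narrow group had a median of 64.3% G and C, 70.9% were CpG-rich, and GGGCGG was found in 67.1%. Beside it the members were thus more often CpG-rich, the reverse of the order against all shared promoters.

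The flanks into which the members grew were rich in G and C. The 300 bases outward from the C4-2B edge, on the side of most added bases, had a median of 62.7% G and C in the members, 51.3% in all shared promoters with added bases, and 54.3% in 1526 such promoters of at most 750 bp in C4-2B that were neither wider nor narrower by the rule. CpG-rich flanks made up 57.9%, 29.7% and 33.8%. GGGCGG on either strand was found in 52.6% of the members' flanks (interval 49.4 to 55.7), in 28.1% of all and in 31.7% of the narrow non-members. In the same order of members, all and narrow non-members, the TATA box letters TATAAA were found in 4.01%, 13.0% and 11.8% of the flanks. The letters of the factor family named GATA, as spelled above, were found in 5.97%, 12.2% and 12.1%, and CCAAT, bound by NFY, in 20.4%, 27.6% and 24.6%. These letters differ in G and C content, which itself differed between the flanks, and the distance of the flank from the TSS is shorter where the C4-2B interval is narrow. The members added a median of 520 bases and all shared promoters 45. By the rule itself, more of the members' flanks was therefore called accessible in C4-2BER. The flank comparison is thus in part one of called against uncalled DNA. TGTTTAC (forkhead) was found in 2.06%, 3.64% and 3.08%, TGANTCA (AP-1) in 3.70%, 5.96% and 5.57%, and TGATTNAT (PBX-HOX) in 1.23%, 2.98% and 2.23%. CAGCTG was found in 15.3% of the members' flanks and in the same share of the narrow non-members, against 12.4% of all. The E-box CATCTG was found in 11.9%, 14.7% and 15.1%, and CCGGAAG in 5.14%, 3.01% and 3.87%. ATGCAAAT (POU) was found in 11 of the members' 972 flanks against 132 of all 10526, and TGACGTCA (CREB) in 0.206% against 0.219%. The longer NRF1, YY1 and androgen response element letters were found in 1, 2 and 0 of the 972 flanks.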

How the data were processed

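ATAC-seq reads of 4 libraries, 2 per line, were trimmed, aligned to hg38 with Bowtie2, filtered at a mapping quality of 10, freed of duplicates with Picard and merged by line by the authors, who called peaks with MACS2 (version not given in the sources used here, shift printed as 100, extension to 200 bp). The deposited fold enrichment is a ratio of summit reads to local background reads after a pseudocount of 1 is added to each. The −log10 p and −log10 q deposited for a summit were computed by MACS2. The deposited score restates q as a whole number and was not used. Other deposited columns give interval start and end and summit offset in bp.

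Rows sharing an interval were counted once, with the summit of highest −log10 p. Whole reads were solved from fold and −log10 p and tested on simulated data. Depth assumes a genome size of 2700000000 bp; the ratio of backgrounds, 1.20, does not. Canonical TSSs came from GENCODE release 44 (hg38), sequences from the hg38 genome (pysam 0.24.0; pandas 2.3.3, scipy 1.17.1, Python 3.11.15). The share at the same C4-2B widths is the mean, over the genes of a family, of the share of members among all shared genes in the same width class (limits 300, 500, 750, 1000 and 1500 bp). Members, families and gene lists were chosen with earlier results of these data known. Genes named are the 12 members of largest width ratio and the 8 with most added bases, both at a −log10 q of at least 10 in both lines, members of the marker lists and of the HOX, homeobox, FOX, SOX and bHLH families, the 2 of largest ratio (same condition) in families with at least 5 members, and 3 on either side of the cutoff. Other examples (PCDHA4, PCDH7, PCDHGA11, the cadherins, ITGA7, NR3C1, the other nuclear receptors, KLF13, SP3 and NCAM1) were chosen after their values were seen, as was the comparison with promoters of at most 750 bp. With 1 merged list per line no test was made. Some genes and sequences within these rules are not reported here.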

Additional observations from a re-analysis of the deposited data

How the results depend on the processing

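Members outnumbered genes wider in C4-2B under all 12 alternatives, and mainly downstream exceeded mainly upstream under all 14. Of 77 recomputed values, 46 stayed within 1.5 times the count or within the 95% interval of the share or median. No paired analysis was possible because each list pools the libraries of its line, and for the same reason no replicate could be left out.

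At the lower of the other ratio cutoffs there were 2128 members and 786 genes wider in C4-2B, 35.2% of the members were upstream, 38.8% met another C4-2B interval and the median read ratio was 1.18. At the higher one, 2, there were 362 and 115, 63.0% met another interval and the read ratio was 1.61. With summed widths there were 499 and 129, with 32.9% downstream, 7.41% meeting another interval and a read ratio of 1.47. With a single summit in both lists there were 147 and 73, with 25.9% downstream, 23.1% upstream, 2.72% meeting another interval and a read ratio of 1.52. With any TSS of a coding transcript, 548 genes were wider in C4-2B, 32.5% of the members were upstream and the read ratio was 1.39. With a −log10 q of at least 10, 59.0% met another interval and the read ratio was 1.22. With intervals under 200 bp apart joined first, 33.2% met another interval, and with a difference of at least 300 bp, 58.7%. With a side cut of 60% the shares downstream and upstream were 52.5% and 36.4%, and at 90% they were 30.5% and 21.2%. Apart from what the settings themselves exclude, the cause of these shifts was not tested. Sites too weak to be listed, and intervals split by a short dip in reads, limit what a width can show.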
